A study of Homo sapiens with 8 samples.

Results

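The genes of the NF-kB signalling pathway examined here are 33 of the 19974 protein-coding genes in the RefSeq table: 5 NF-kB subunits, 6 proteins of the IkB family, 5 kinases, 7 TRAF and BIRC ubiquitin ligases, 4 deubiquitinases and TNIP proteins, 3 receptors and 3 adaptors. They were taken from a list of pathway genes by symbol, and their peaks by position. A locus is the gene body with 5 kb on both sides, and a gene-end peak lies within 1 kb of either end of the gene. The ChIP-seq was done in OPM-2, an established human myeloma line that carries the t(4;14) translocation per the study's title. Cells had 72 h with 1 µM all-trans retinoic acid (ATRA) plus 1 µM pomalidomide (POM), with 1 µM POM, with 1 µM ATRA, or with the vehicle DMSO. Each treatment had 1 ChIP library, with a peak list, and 1 input library, which was not analysed here. All 4 groups are this single cell line, and the labels do not name the antibody, so a peak is called here only a peak and not a site of a given factor.

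NF-kB proteins are dimeric transcription factors held in the cytoplasm by IkB inhibitors. Receptors and adaptors activate IkB kinases, the inhibitors are degraded, and the dimers enter the nucleus, where the genes of several inhibitors are themselves targets and close a negative feedback loop. A second, noncanonical branch runs through the kinase encoded by MAP3K14, whose level TRAF3, TRAF2 and the BIRC proteins keep low, and recurrent mutations of this branch are known in myeloma. Pomalidomide directs the cereblon ubiquitin ligase to the Ikaros family factors IKZF1 and IKZF3, and all-trans retinoic acid is a ligand of the retinoic acid receptors.

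The lists held 47193 peaks with ATRA+POM, 54279 with POM, 36742 under the ATRA label and 50946 with DMSO. Each peak carries the authors' fold enrichment, the ratio of its summit to a local background. Whether that background was taken from the ChIP or the input library is not known here. Fold enrichment and p-value together gave back the number of reads at the summit. Relative to DMSO, depth inferred from the lowest background over the smallest peak width was 0.902 with ATRA+POM, 0.927 with POM and 0.133 under the ATRA label. Median summits held 65, 72, 23 and 78 reads with ATRA+POM, with POM, under the ATRA label and with DMSO. The library labelled ATRA was thus far shallower than the others, and 10% of its peaks had 11 reads or fewer. There was 1 library a treatment, so no difference below has a replicate check and no p-value is given. Intervals cover counting error only, and reads are not known to be independent molecules. Plasma cell markers had a gene-end peak in each list for 8 of 8 genes, against 2 or 3 of 16 markers of other cell types.

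The promoter windows of 6 members are printed. They were taken from members whose gene-end peak differs between lists or whose promoter holds an NF-kB site. Each runs from 250 bases before to 50 bases after a RefSeq start (assembly GRCh38.p14, read on the gene's strand), and capitals mark matches to the 10-base NF-kB consensus on either strand. NFKB1 lies at chr4:102501109-102501408 (+), NFKB2 at chr10:102394328-102394627 (+) and NFKBIA at chr14:35404700-35404999 (-). NFKBIZ lies at chr3:101827740-101828039 (+), BIRC3 at chr11:102317234-102317533 (+) and IKBKE at chr1:206470226-206470525 (+).
NFKB1: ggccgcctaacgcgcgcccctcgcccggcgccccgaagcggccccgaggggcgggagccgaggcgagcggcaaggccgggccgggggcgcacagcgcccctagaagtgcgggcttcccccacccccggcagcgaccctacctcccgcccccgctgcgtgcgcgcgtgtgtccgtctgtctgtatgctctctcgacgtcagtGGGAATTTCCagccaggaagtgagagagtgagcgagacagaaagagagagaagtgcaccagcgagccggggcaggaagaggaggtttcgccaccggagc
NFKB2: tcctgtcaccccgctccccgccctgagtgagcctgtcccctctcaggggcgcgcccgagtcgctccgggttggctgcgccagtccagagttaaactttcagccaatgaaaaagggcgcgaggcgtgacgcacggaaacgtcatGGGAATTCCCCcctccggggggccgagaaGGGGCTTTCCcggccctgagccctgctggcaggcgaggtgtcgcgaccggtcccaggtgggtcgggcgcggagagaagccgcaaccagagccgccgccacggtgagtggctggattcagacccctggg
NFKBIA: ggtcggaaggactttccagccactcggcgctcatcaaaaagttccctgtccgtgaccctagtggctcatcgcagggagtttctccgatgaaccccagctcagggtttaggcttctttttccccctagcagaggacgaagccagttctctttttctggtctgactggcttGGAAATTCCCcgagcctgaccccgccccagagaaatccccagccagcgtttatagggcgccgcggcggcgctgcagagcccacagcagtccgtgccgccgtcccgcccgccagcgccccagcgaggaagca
NFKBIZ: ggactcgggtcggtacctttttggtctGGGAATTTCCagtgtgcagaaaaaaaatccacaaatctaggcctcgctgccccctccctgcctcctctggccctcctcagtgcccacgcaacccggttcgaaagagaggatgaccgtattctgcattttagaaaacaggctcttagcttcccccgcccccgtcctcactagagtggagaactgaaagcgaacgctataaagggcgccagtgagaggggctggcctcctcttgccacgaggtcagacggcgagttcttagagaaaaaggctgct
BIRC3: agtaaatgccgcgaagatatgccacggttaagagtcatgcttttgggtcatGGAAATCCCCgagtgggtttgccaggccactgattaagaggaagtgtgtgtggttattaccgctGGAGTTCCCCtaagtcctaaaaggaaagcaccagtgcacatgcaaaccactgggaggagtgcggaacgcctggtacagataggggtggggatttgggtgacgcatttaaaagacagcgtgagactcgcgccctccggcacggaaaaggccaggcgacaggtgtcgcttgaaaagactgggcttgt
IKBKE: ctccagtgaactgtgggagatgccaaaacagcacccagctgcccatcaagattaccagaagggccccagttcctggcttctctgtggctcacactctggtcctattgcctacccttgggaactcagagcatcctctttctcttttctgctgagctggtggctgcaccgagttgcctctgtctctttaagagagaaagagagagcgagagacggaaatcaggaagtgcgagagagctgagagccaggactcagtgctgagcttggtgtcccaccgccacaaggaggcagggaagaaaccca
NFKB1 and NFKBIZ hold the same 10 letters, GGGAATTTCC, which begin 49 bases before the NFKB1 start and 223 bases before the NFKBIZ start. NFKB2 holds a run of 11 letters in which 2 matches overlap and, 78 bases before the start, GGGGCTTTCC. BIRC3 holds 2 matches, 199 and 135 bases before its start. IKBKE holds none in this window, which says only that these letters are not in it.

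RefSeq windows were given for 29 of the 33 members, 45 windows in all. The NF-kB consensus occurred in 17 of the 45 windows (37.8%), against 2801 of all 22132 windows (12.7%), and in at least 1 window of 13 members. These were NFKB1, NFKB2, REL, NFKBIA, NFKBIB, NFKBIZ, NFKBID, BCL3, TRAF3, BIRC3, CYLD, TNFAIP3 and TNIP1, and 5 of these belong to the IkB family. The share of all genes with a match in at least 1 window was not computed, so the 13 members have no such share beside them. Windows of the same gene can overlap, as at CYLD, and were counted separately. The GC box GGGCGG was in 71.1% of member windows and 56.3% of all windows, and the Ikaros core TGGGAA in 28.9% and 22.7%. The CRE TGACGTCA was in 3 member windows (6.67%, against 2.26% of all windows), and neither of the retinoid repeats searched was in any member window. Motifs were searched on both strands.

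Peaks were common at these genes in every list. A gene-end peak was called at 22 of 33 members with ATRA+POM (66.7%, against 41.3% of all protein-coding genes) and at 24 with POM (72.7%, against 47.9%). Under the ATRA label it was called at 20 members (60.6%, against 40.0%) and with DMSO at 26 (78.8%, against 48.8%). Over the whole loci the members held 5.81 peaks per 100 kb with ATRA+POM, 7.36 with POM, 5.06 under the ATRA label and 6.48 with DMSO. All protein-coding loci held 2.66, 3.01, 2.34 and 2.93 peaks per 100 kb in the same lists. Counted per locus and not per length, members and all genes lay closer. Members had a mean of 2.61, 3.30, 2.27 and 2.91 peaks per locus in these lists, and all genes 1.99, 2.25, 1.75 and 2.19. Median heights of the members and of all genes lay closer together. The median fold enrichment of the strongest locus peak was 16.5 at members and 15.6 at all genes with ATRA+POM. It was 28.4 and 26.1 with POM, 16.6 and 18.3 under the ATRA label, and 19.4 and 24.4 with DMSO.

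A gene-end peak was present in all 4 lists at 19 members (57.6%, against 37.3% of all genes): NFKB1, NFKB2, RELA, REL, NFKBIA, NFKBIB, NFKBIE, BCL3, IKBKB, CHUK, TBK1, TRAF5, TRAF6, BIRC2, CYLD, TNFAIP3, TNFRSF1A, BCL10 and MALT1. The 7 members RELB, NFKBIZ, IKBKE, TRAF3, BIRC3, TNIP2 and MYD88 had one in 1 to 3 lists. NFKBID, MAP3K14, TRAF1, TRAF2, TNIP1, LTBR and TNFRSF13C had none, although NFKBID, TRAF2 and TNIP1 had peaks at RefSeq starts inside the gene.

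**Figure D1:**
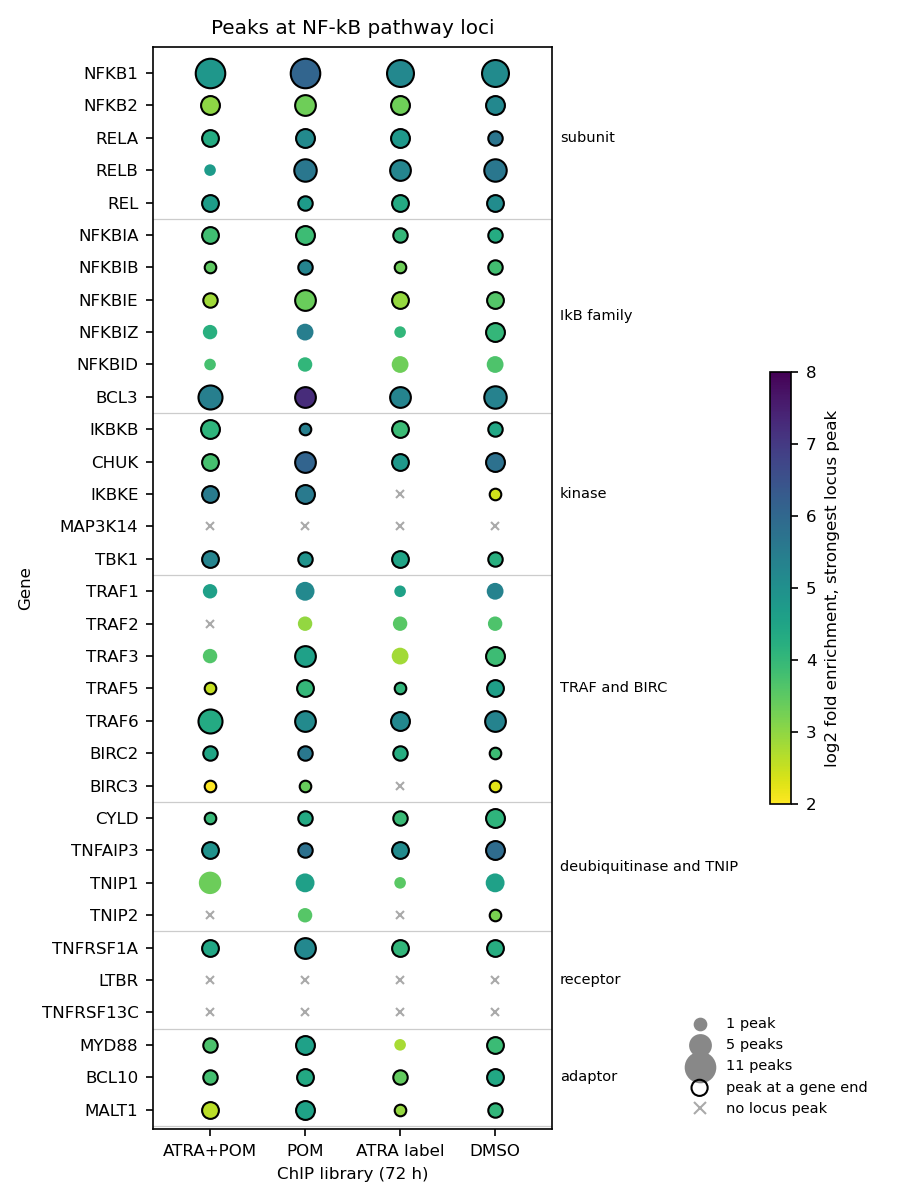
Peaks at the 33 NF-kB pathway loci in the 4 lists, with genes down the page by role and libraries across. Dot area follows the number of locus peaks, colour the log2 fold enrichment of the strongest one, a black ring marks a peak at a gene end and a cross marks no locus peak; the ring is missing in some lists at 7 genes, and MAP3K14, LTBR and TNFRSF13C have crosses throughout.

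Among the subunits, NFKB1, which encodes the precursor of the DNA-binding partner of RELA, had the most peaks of any member, 11 with ATRA+POM, 11 with POM, 9 under the ATRA label and 9 with DMSO. A list can split a region into several peaks, and merged over the lists these peaks formed 9 regions. The strongest lay inside the gene at chr4:102596555-102600580 and had 1160 reads with ATRA+POM, 3300 with POM, 247 under the ATRA label and 1730 with DMSO. With POM this was peak number 56 of the list by q-value. The merged start region chr4:102500300-102504332, which holds the printed promoter, had 763, 1441, 144 and 951 reads in the same order of lists. The strongest peak overlapping the printed window had 230 reads with POM, 12 under the ATRA label and 951 with DMSO. These reads are not comparable, because the lists divided the start region differently. The DMSO summit lay outside the window, 661 bases from the nearest RefSeq start. The 1441-read POM and 144-read ATRA-label summits lay 649 and 660 bases from it, in separate peaks that did not overlap the window. No ATRA+POM peak overlapped that window. The strongest gene-end peak with ATRA+POM had 145 reads, so the 763-read peak lay over 1 kb from either gene end. The region beyond the end of the gene, chr4:102619262-102622265, had 886 reads with ATRA+POM, 1862 with POM, 49 under the ATRA label and 356 with DMSO.

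The NFKB1 regions did not move alike. Scaled by depth, the region beyond the gene end had 5.64 times as many reads with POM as with DMSO (95% interval 5.03 to 6.34), the intragenic region 2.06 times (1.94 to 2.18) and the start region 1.63 times (1.50 to 1.78). Another intragenic region, chr4:102542057-102544565, had 0.648 times as many (0.567 to 0.739), and the median gene 0.918 times. With ATRA+POM these ratios to DMSO were 2.76 (2.44 to 3.13) beyond the gene end and 0.743 (0.689 to 0.801) in the strongest region. They were 0.889 (0.807 to 0.979) in the start region and 0.468 (0.403 to 0.543) in the last one, where the median gene had 0.505. In the start region the ATRA+POM peak used lay over 1 kb from either gene end. Against POM alone, the ratios with ATRA+POM were 0.489, 0.361, 0.544 and 0.723 in these regions, where the median gene had 0.548. Fewer scaled reads were thus counted in each of them with the combination than with POM alone, and the region beyond the gene end was above DMSO in both lists. The regions were picked after their values were seen.

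**Figure D2:**
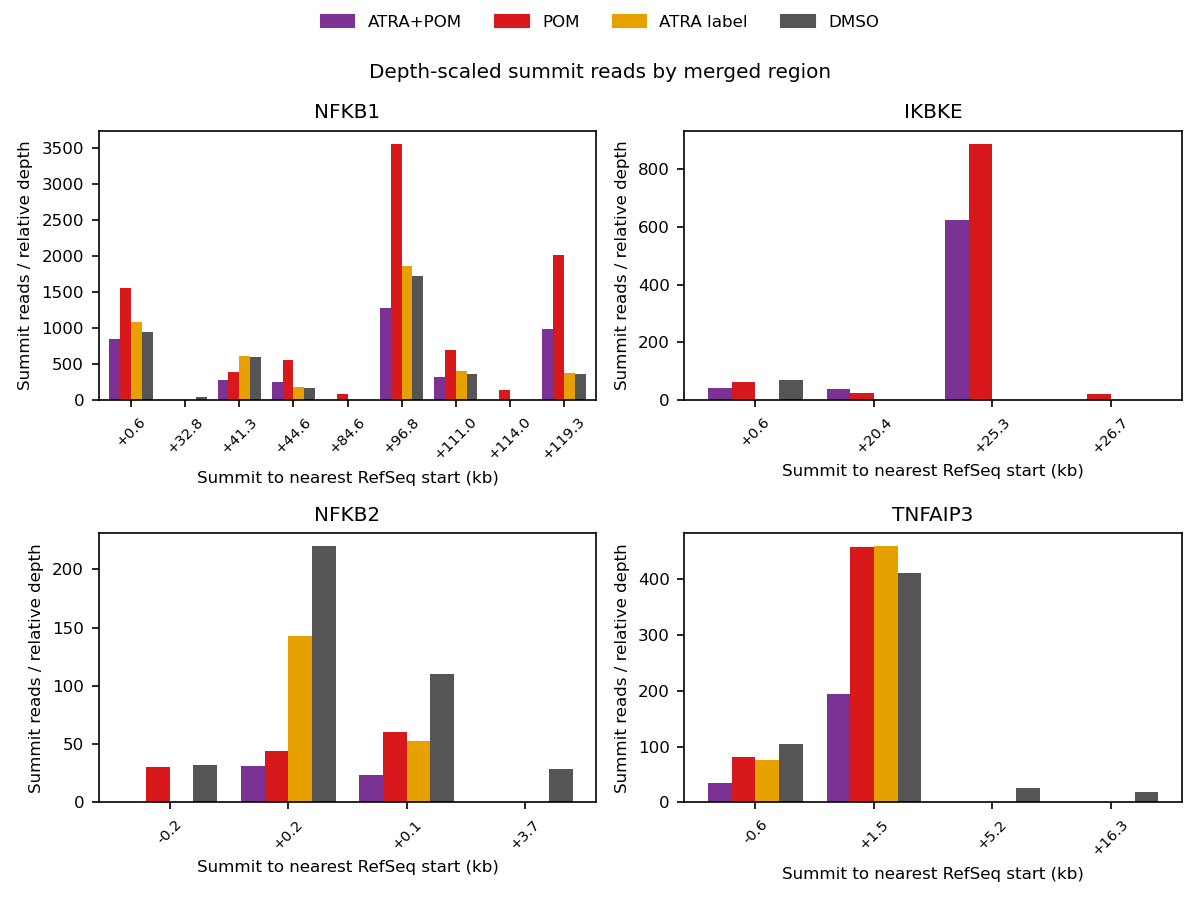
Summit reads divided by relative depth (y axis, linear, each gene on its own scale) in the merged regions of NFKB1, IKBKE, NFKB2 and TNFAIP3, ordered along the chromosome and named by the distance of the summit from the nearest RefSeq start. Bars from left to right are ATRA+POM, POM, the ATRA label and DMSO, and a missing bar means no called peak; the IKBKE region 25.3 kb from the start has bars in 2 lists, and the NFKB2 start bar is tallest with DMSO.

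NFKB2, the precursor of the subunit released in the noncanonical branch, stood highest with DMSO. Its start region, chr10:102394103-102395584, had 28 reads with ATRA+POM, 41 with POM, 19 under the ATRA label and 220 with DMSO. Fold enrichments were 8.05, 9.20, 9.99 and 36.6. Scaled reads were 0.141 times those of DMSO with ATRA+POM (0.0916 to 0.210) and 0.201 times with POM (0.140 to 0.282), the lowest ratio of any member compared at its strongest shared peak in both cases. Under the ATRA label the ratio was 0.651 (0.384 to 1.04), where the median gene had 1.13. The median gene had 0.505 for ATRA+POM and 0.918 for POM. The neighbouring region, chr10:102395675-102396534, had 21, 56, 7 and 110 reads with ATRA+POM, POM, the ATRA label and DMSO.

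RELA, RELB and REL encode the subunits with activation domains. RELA had start-region summits of 69 reads with ATRA+POM, 122 with POM, 47 under the ATRA label and 313 with DMSO. REL had 2 start regions that differed in their order. The region chr2:60881601-60883745 had 197 reads with ATRA+POM, 304 with POM, 31 under the ATRA label and 210 with DMSO, and chr2:60880626-60881415 had 100, 192, 38 and 263. Scaled reads with POM were 1.56 times those with DMSO in the first (1.31 to 1.87) and 0.787 times in the second (0.650 to 0.952). RELB, the partner of the NFKB2 product, had no gene-end peak with ATRA+POM. Its gene-end region chr19:45001515-45001898 had 58 reads with POM, 35 under the ATRA label and 175 with DMSO. A larger RELB region inside the gene, chr19:45015640-45017913, was called throughout, with 407 reads with ATRA+POM, 928 with POM, 112 under the ATRA label and 759 with DMSO. The peaks at the other end of RELB lie at an end of CLASRP as well and cannot be assigned to one gene.

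In the IkB family, NFKBIA encodes the inhibitor that NF-kB induces as rapid feedback. Its start region chr14:35404188-35405260 had 31 reads with ATRA+POM, 35 with POM, 7 under the ATRA label and 69 with DMSO. A region on the far side of the gene, chr14:35397818-35398635, was called with 60 reads with ATRA+POM and 89 with POM, and in neither other list. NFKBIB, another cytoplasmic inhibitor, had 153 reads with ATRA+POM, 260 with POM, 29 under the ATRA label and 189 with DMSO in a region that also lies at an end of SIRT2. NFKBIE, the remaining cytoplasmic inhibitor, had a low region at one gene end throughout, with 35, 45, 9 and 52 reads in those lists.

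NFKBIZ, NFKBID and BCL3 encode nuclear IkB proteins that bind subunits at promoters. The printed NFKBIZ start had a peak only in the DMSO list, with 27 reads, in a region that also lies at an end of NXPE3 and cannot be assigned to one gene. An internal NFKBIZ start had the larger region, chr3:101849440-101851388, with 197 reads with ATRA+POM, 346 with POM, 46 under the ATRA label and 239 with DMSO. BCL3 had the highest fold enrichment of any member in a single list, 152 with POM, against 43.3 with ATRA+POM, 39.3 under the ATRA label and 40.4 with DMSO. The reads at that region, chr19:44753579-44755347, differed less, with 315, 765, 104 and 548 reads with ATRA+POM, POM, the ATRA label and DMSO. The background implied under the BCL3 summit was 4.03 reads with POM and 12.6 with DMSO, and the scaled reads with POM were 1.51 times those with DMSO (1.35 to 1.68). NFKBID had 45 reads with ATRA+POM, 39 with POM, 11 under the ATRA label and 65 with DMSO at an internal start. At another internal start, chr19:35899880-35900829, it had no ATRA+POM peak, 56 reads with POM, 15 under the ATRA label and 100 with DMSO.

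Among the kinases, IKBKE encodes an IkB kinase relative that acts with TBK1 in antiviral signalling. At its far end, chr1:206494804-206497040, a peak of 562 reads was called with ATRA+POM and one of 824 reads with POM. Fold enrichments there were 46.3 and 46.8, and neither the ATRA-labelled nor the DMSO list had a peak in the region. The smallest summit called with DMSO held 13 reads, and 824 reads with POM would correspond to 118 reads at the depth of the ATRA-labelled library. The IKBKE start region, chr1:206470176-206471386, had 37 reads with ATRA+POM, 58 with POM, no peak under the ATRA label and 68 reads with DMSO. The start and the far end of this gene thus differed in which lists called them.

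TBK1 had an intragenic region, chr12:64458898-64460256, with 362 reads with ATRA+POM, 337 with POM, 56 under the ATRA label and 343 with DMSO. Its scaled reads were 1.10 times those of POM with ATRA+POM (0.949 to 1.28), where the median gene had 0.548 times. The TBK1 start region, shared with XPOT, had 174, 368, 26 and 144 reads in the lists of ATRA+POM, POM, the ATRA label and DMSO. CHUK, a catalytic IkB kinase, had its strongest peak at an end shared with ERLIN1, with 153 reads with ATRA+POM, 385 with POM, 58 under the ATRA label and 398 with DMSO. At the CHUK start, chr10:100229065-100229891, there were 37, 45, 8 and 87 reads. IKBKB, the main canonical kinase, had 94 reads with ATRA+POM, 172 with POM, 29 under the ATRA label and 188 with DMSO at one gene end. MAP3K14, the kinase of the noncanonical branch, had no locus peak, and the nearest peak was 32.5 to 33.2 kb away in the 4 lists.

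The TRAF and BIRC genes encode ubiquitin ligases and scaffolds between receptors and kinases. TRAF5 had 35 reads with ATRA+POM, 111 with POM, 37 under the ATRA label and 265 with DMSO at its start, chr1:211327045-211328148. TRAF3, which targets the MAP3K14 kinase for degradation, had a gene-end peak with POM (30 reads) and DMSO (59 reads) and in neither other list. Deep inside TRAF3, the strongest region, chr14:102901193-102902219, had 178 reads with ATRA+POM, 408 with POM, 18 under the ATRA label and 163 with DMSO. Its scaled reads with POM were 2.70 times those with DMSO (2.25 to 3.26). The other TRAF3 regions called in both lists went the other way, with 48 reads with POM and 104 with DMSO at chr14:102784536-102785574 and 29 with POM and 96 with DMSO at chr14:102819094-102819938. TRAF6, which relays Toll-like and interleukin receptor signals, had 521, 935, 198 and 1168 reads in its strongest region, with ATRA+POM, POM, the ATRA label and DMSO.

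BIRC3, whose product and that of BIRC2 are the ligases of the TRAF complex, had 1 region, overlapping the printed promoter, with 93 reads with ATRA+POM, 234 with POM, no peak under the ATRA label and 109 reads with DMSO. Its scaled reads with POM were 2.32 times those with DMSO (1.84 to 2.93). BIRC2 had 253 reads with ATRA+POM, 368 with POM, 34 under the ATRA label and 311 with DMSO. TRAF1 had its strongest peak upstream of the gene, with 222, 519, 76 and 519 reads in the same order of lists. TRAF2 had no peak with ATRA+POM, and at an internal start 49 reads with POM, 20 under the ATRA label and 87 with DMSO.

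TNFAIP3 and CYLD encode deubiquitinases that end signalling, and TNIP1 and TNIP2 bind the TNFAIP3 product. TNFAIP3 had 175 reads with ATRA+POM, 425 with POM, 61 under the ATRA label and 412 with DMSO in its main start region. Its fold enrichment with DMSO, 59.7, was the highest of any member in that list. CYLD had 131, 228, 48 and 361 reads upstream of its start with ATRA+POM, POM, the ATRA label and DMSO. TNIP1 had 91 reads with ATRA+POM, 186 with POM, 18 under the ATRA label and 142 with DMSO at an internal start. TNIP2 had 2 peaks upstream, of 133 and 127 reads and over 1 kb from the gene, with POM alone, and a start peak of 32 reads with DMSO alone.

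Among the receptors, TNFRSF1A, the main TNF receptor, had 58 reads with ATRA+POM, 189 with POM, 34 under the ATRA label and 210 with DMSO at its start. An intragenic TNFRSF1A region, chr12:6335016-6336429, had 97, 158, 14 and 78 reads in those lists. LTBR, the lymphotoxin receptor, and TNFRSF13C, the BAFF receptor, had no locus peak. The adaptor MYD88 serves Toll-like and interleukin receptors. Its region spanning the start, chr3:38138221-38139144, was called with POM (34 reads) and DMSO (48 reads) and in neither other list. A larger MYD88 region, at an end of ACAA1 too, had 165 reads with ATRA+POM, 328 with POM, 33 under the ATRA label and 313 with DMSO. There the ATRA+POM peak lay within 1 kb of the gene end and counts as a gene-end peak. BCL10 and MALT1, which carry antigen receptor signals to the kinases, had 78, 94, 21 and 185 reads (BCL10) and 28 reads, 100 reads, no peak and 92 reads (MALT1) in their strongest start regions, with ATRA+POM, POM, the ATRA label and DMSO.

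Pomalidomide against DMSO asks what the drug alone was linked to. No member had a gene-end peak with POM and none with DMSO, of 7 that could (3.79% of all such genes did). Of the 26 with a DMSO gene-end peak, NFKBIZ and TNIP2 had none with POM, 2 members against 5.93% of all genes. More locus peaks were called with POM at 14 of 30 members (34.2% of all genes) and fewer at 7 (32%). Here and in the comparisons below these counts are of peaks, and a list can split a region into several. RELA, 1 of the 14, had 4 peaks with POM and 2 with DMSO, in the same 2 merged regions. The median log2 ratio of fold enrichment at the strongest shared peak was 0.29 over 29 members and 0.12 over 11806 genes. After centring on that gene median, fold enrichment was over 2 times higher at 6 members (9.02% of all genes), NFKBIB, NFKBIZ, BCL3, IKBKE, BIRC2 and BIRC3, and over 2 times lower at NFKB2 alone (9.1%).

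Summit reads gave a different set. By scaled reads, NFKB1, TRAF3 and BIRC3 were over 2 times higher with POM (9.66% of all genes) and NFKB2, RELA and TRAF5 over 2 times lower (7.04%). Of the 6 called higher by fold enrichment, BIRC3 alone was called higher by reads. At BIRC2 the fold enrichment was 48.2 with POM and 14.8 with DMSO, the reads 368 and 311 and the implied background 6.65 and 20.1 reads. At the IKBKE start it was 15.1 with POM and 5.41 with DMSO, the reads 58 and 68 and the background 2.90 and 11.7. Shares of 3 in 29 members by reads lie near those of all genes, and NFKB2 and BIRC3 were the members called by both measures.

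The combination against DMSO showed no member with a gene-end peak with ATRA+POM and none with DMSO, of 7 (1.75% of all genes). RELB, NFKBIZ, TRAF3 and TNIP2 had one with DMSO and none with ATRA+POM, 4 of 26 members (17.3% of all genes). More locus peaks were called with ATRA+POM at 11 of 30 members (31.1% of all genes) and fewer at 15 (45.5%). Fold enrichment had a median log2 ratio of -0.41 over 27 members and -0.74 over 10784 genes. BIRC2, TNFRSF1A and TBK1 were over 2 times higher after centring (11.4% of all genes), and NFKB2, CHUK, TRAF5 and MALT1 over 2 times lower (9.23%). By scaled reads TRAF3, TNFRSF1A and TBK1 were higher (12.6%) and NFKB2 and TRAF5 lower (7.97%). Both TNFRSF1A calls rest on its intragenic region, with 97 reads with ATRA+POM and 78 with DMSO. The TNFRSF1A start region went the other way, with 64.3 reads at DMSO depth with ATRA+POM and 210 with DMSO. The scaled reads of TRAF5 were 0.146 times those of DMSO (0.100 to 0.209), where the median gene had 0.505 times.

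Adding ATRA to POM asks what the retinoid was linked to on top of the drug. No member had a gene-end peak with ATRA+POM and none with POM, of 9 (0.653% of all genes), and RELB and TRAF3 had one with POM and none with ATRA+POM, 2 of 24 (14.5%). More locus peaks were called with ATRA+POM at 7 of 30 members (26% of all genes) and fewer at 20 (66.7%, against 45.1%). Scaled reads had a median ratio of 0.577 over 28 members and 0.548 over 11277 genes, and log2 fold enrichment one of -0.89 and -0.85. NFKBID and TBK1 were over 2 times higher after centring by both measures (7.44% of all genes by fold enrichment, 5.42% by reads). The NFKBID call rests on 45 reads with ATRA+POM and 39 with POM, a scaled ratio of 1.19 (0.755 to 1.87). Another NFKBID region, chr19:35899880-35900829, had 56 reads with POM and no ATRA+POM peak. CHUK and MALT1 were over 2 times lower by fold enrichment (6.15%), and no member was by reads (3.81%).

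**Figure D3:**
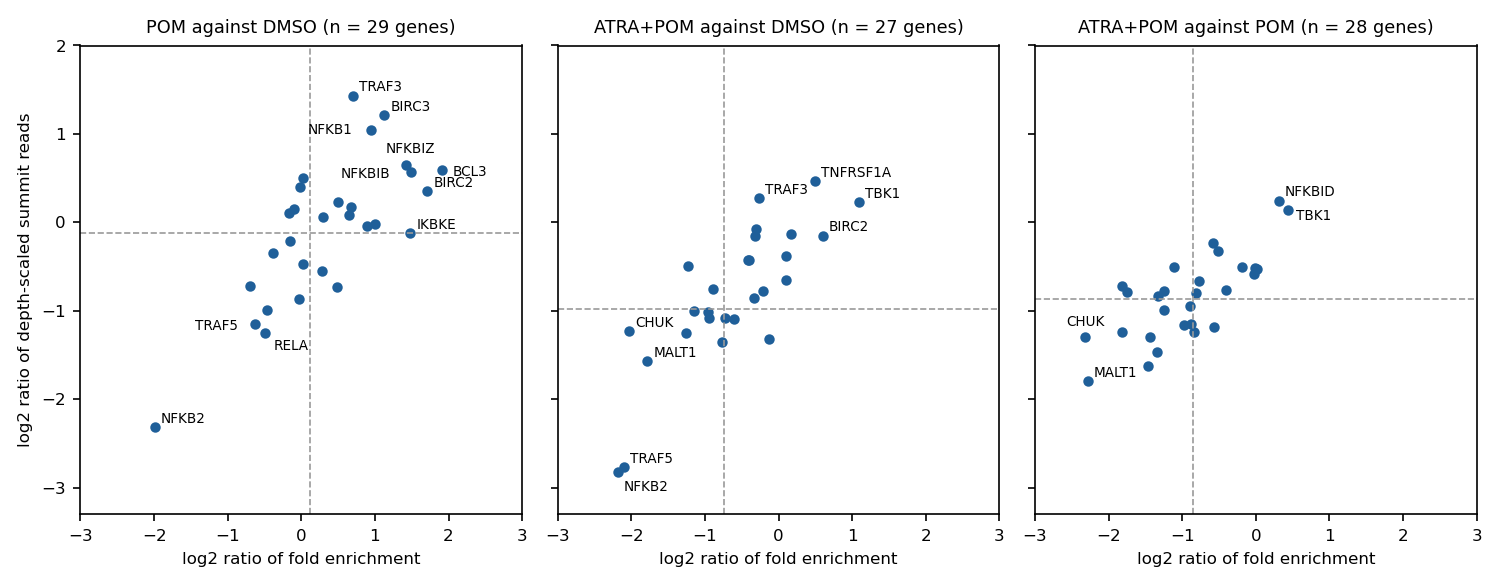
Log2 ratio of fold enrichment (x axis) against log2 ratio of depth-scaled summit reads (y axis) at the strongest locus peak shared by the 2 lists, 1 point per member, for 3 comparisons. Dashed lines are medians over all genes, and genes over 2 times from either median are named; NFKB2 lies lowest in the first panel and NFKB2 and TRAF5 lie lowest in the second.

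The comparisons with the ATRA-labelled library carry its shallow depth. Against DMSO, no member had a gene-end peak under the ATRA label alone, of 7 (0.0685% of all genes). NFKBIZ, IKBKE, TRAF3, BIRC3, TNIP2 and MYD88 had one with DMSO alone, 6 of 26 (18.2%). At the depth of the ATRA-labelled library the DMSO summits would have held 3.58 reads at the NFKBIZ start, 9.03 at the IKBKE start, 7.83 at the TRAF3 start, 14.5 at BIRC3 and 4.25 at TNIP2. The smallest summit called under the ATRA label held 5 reads, and member peaks of 7 to 9 reads were called there at NFKBIA, NFKB2, CHUK and NFKBIE. The NFKBIZ and TNIP2 values lie below that smallest summit, and those of IKBKE, TRAF3 and BIRC3 within the range of summit reads that was called. A call also depends on local background. With DMSO that was 11.7 reads at the IKBKE start and 21.8 at BIRC3, where the lowest background of the list was 2.55. The part of depth in these absences was not tested. At MYD88 the ATRA-labelled peak of 33 reads lay in the same region as the DMSO gene-end peak but over 1 kb from the gene end. More locus peaks were called under the ATRA label at 4 of 30 members (23.2%) and fewer at 18 (53.3%).

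The median log2 ratio of fold enrichment of the ATRA label to DMSO was -0.49 over 27 members and -0.54 over 10614 genes. Over 2 times higher was no member by fold enrichment (0.933%) and NFKBIA by scaled reads (0.782%). Over 2 times lower was NFKB2 by fold enrichment (3.07%) and no member by reads (0.575%). The NFKBIA call rests on 24 reads under the ATRA label and 75 with DMSO, a scaled ratio of 2.41 (1.46 to 3.86).

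Adding POM to ATRA set the combination against the same shallow library. IKBKE, BIRC3 and MYD88 had a gene-end peak with ATRA+POM and none under the ATRA label, 3 of 13 (6.6% of all genes), and RELB the reverse, 1 of 20 (6.59%). More locus peaks were called with ATRA+POM at 12 of 29 members (41.7%) and fewer at 7 (29.5%). Over 2 times higher by fold enrichment were REL, NFKBID, TBK1 and MYD88 (9.61%), and lower NFKBIA, TRAF5 and MALT1 (9.96%). The NFKBID call rests on a single region, and its region chr19:35899880-35900829 had 15 reads under the ATRA label and no ATRA+POM peak. The median log2 fold-enrichment ratio came to 0.094 over 26 members and -0.20 over 9784 genes. By scaled reads REL, TRAF3, BIRC2 and TBK1 were higher (10.5%) and NFKB2, NFKBIA and TRAF5 lower (8.44%). The comparisons share lists and are not independent of each other.

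The promoter windows themselves, a narrower measure than the gene ends, held a peak at 14 of 29 members with ATRA+POM (33.3% of 15812 genes with a window), 21 with POM (43.3%), 15 under the ATRA label (5213 of those genes) and 24 with DMSO (47.6%). Of 21 members with a POM peak there, 7 had none with ATRA+POM, namely BCL10, BCL3, MALT1, MYD88, NFKBIB, NFKBID and TRAF2 (23.6% of all genes). Of 24 with a DMSO peak, 10 had none with ATRA+POM, these 7 with CYLD, NFKBIZ and TNIP2 (30.9%), and 3 had none with POM, CYLD, NFKBIZ and TNIP2 (11.7%). Under the ATRA label 9 of the 24 had none (30.9%). No member had a window peak in the first list and none in the second for POM against DMSO (2.33%), ATRA+POM against DMSO (0.713%), ATRA+POM against POM (0.39%) or the ATRA label against DMSO (0.0604%). Against the ATRA label, ATRA+POM had a window peak at BIRC3, CHUK, IKBKE and NFKBIA, 4 of 14 members without one (6.62%), and lacked one at 5 of 15 (12.5%). Of the 7 members named first, TRAF2 alone had no locus peak with ATRA+POM. At NFKBIB the 153-read ATRA+POM peak began at 38900022, and the window ended at 38900018. At BCL10 the 78-read ATRA+POM peak ended at 85276518, and the window began at 85276583. Median peak width was 391 bp with ATRA+POM, 462 bp with POM and 498 bp with DMSO. The part of peak width in these absences was not tested.

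Merged over the lists, the member peaks made 108 regions, of which 46 were called in all 4 lists (42.6%, against 33.9% of 43770 regions at all protein-coding loci). In all, 61 regions were called with ATRA+POM, 92 with POM, 55 under the ATRA label and 88 with DMSO. The locus peaks before merging numbered 86, 109, 75 and 96 in the same order. Regions called with POM and DMSO and in neither list with ATRA numbered 16 (14.8%, against 8.40%). Regions with POM alone numbered 11 (10.2%, against 12.4%) and with DMSO alone 11 (10.2%, against 16.3%). Those called with ATRA+POM and POM and in no other list numbered 5 (4.63%, against 7.37%): 2 IKBKE regions, the far-end one among them, the NFKBIA region, and 1 region each in NFKBIZ (34 and 47 reads) and MALT1 (38 and 51 reads). The reads of these 5 with ATRA+POM and with POM were all under 100 except at the far end of IKBKE. Of the regions called in 4 lists 27 lay at a gene end (58.7%), against 6 of 26 called in a single list (23.1%). The same shares over all protein-coding loci were not computed and region width was not taken into account, so this is not shown to be particular to these genes.

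**Figure D4:**
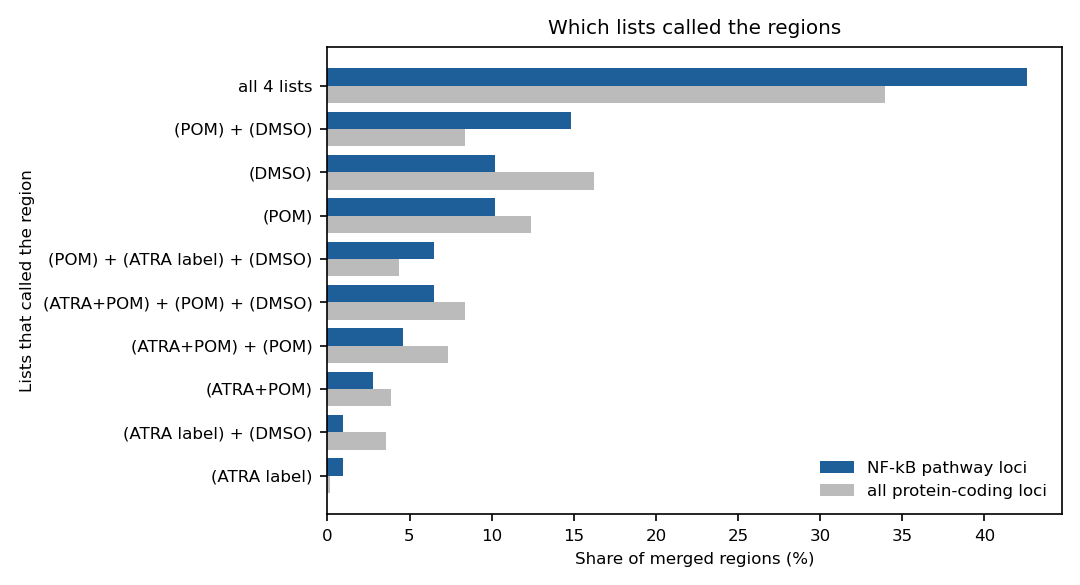
Share of merged regions (x axis, percent, from 0) called by each combination of lists (rows), for the NF-kB pathway loci (blue) and for all protein-coding loci (grey). Regions of all 4 lists are 42.6% and 33.9%, and those of POM and DMSO 14.8% and 8.40%.

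Genes of the pathway outside the 33 were described from 2 further lists. Of 40 upstream genes (ligands, receptors and kinase partners), 20 had a gene-end peak with ATRA+POM, 23 with POM, 20 under the ATRA label and 23 with DMSO. Of 34 known targets, 9, 11, 8 and 9 had one in those lists. The shares of all protein-coding genes were 41.3%, 47.9%, 40.0% and 48.8%, so the targets lay below the general rate in each list. CD40, a receptor that feeds both branches, had 85 reads with ATRA+POM and 83 with POM, and no locus peak under the ATRA label or with DMSO. CCL2, a chemokine gene, had 40 reads with ATRA+POM and 104 with POM, and none in the other lists. CXCL8 (77 reads) and ICAM1 (31 reads) had a gene-end peak with POM alone, so 3 of the 25 targets without one with DMSO had one with POM, and so did 2 of 17 upstream genes, CD40 and TNFRSF1B (3.79% of all such genes). In the other direction, SQSTM1, 1 of 9 targets, and RBCK1 and RIPK1, 2 of 23 upstream genes, had one with DMSO and none with POM (5.93% of all such genes). RBCK1, part of the linear ubiquitin ligase, had no locus peak with ATRA+POM or POM, 9 reads under the ATRA label and 70 with DMSO. TLR9 had none with ATRA+POM, against 51 reads with POM, 13 under the ATRA label and 128 with DMSO.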

How the data were processed

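Peak lists of 4 ChIP libraries were used, of 8 samples whose groups follow the treatment and the words ChIP or Input in their labels. The deposited lists have 10 columns: position, the authors' score (10 times −log10 p), fold enrichment (a ratio of summit to local background), −log10 p, −log10 q and the summit offset. Per the submitters' processing notes, positions are on hg38. The aligner, caller and antibody were not given in the sources used here. Depth is unknown except as inferred. Chromosomes 1 to 22 and X entered. Summit reads and background were solved from fold and p under a Poisson model with 1 added to both, and reads came out whole within 0.02 for nearly all peaks. Relative depth is a ratio to DMSO of the lowest background occurring at least 20 times, after division by the smallest peak width of the list. Scaled ratios carry 95% exact binomial (Clopper-Pearson) intervals.

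Loci and gene ends came from RefSeq gene positions, matched for all 33 members. Lists were compared at the strongest member peak overlapping in both by 1 bp or more, and overlapping peaks of all lists were merged into regions, each with its strongest peak per list. Members were named fully where a gene-end peak differed between lists, the fold ratio passed 2 times relative to the gene median, or the peak was among the 3 strongest of a list; others are summarised. The members and lists were chosen with earlier results of these data known, and the calls by scaled reads, the promoter-window counts and the region ratios were added after peak values had been seen. As alternatives, lists were reduced to their stronger 50% or to 36742 peaks each, and the others were 3 kb windows, the gene body alone, peaks merged within 500 bp, no locus peak in the other list, 50% overlap, gene-end peaks and scaled reads. Solving for reads was checked on simulated peaks. Python 3.11.15, pandas 2.3.3, numpy 2.4.6, scipy 1.17.1 and matplotlib 3.10.9 were used.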

Additional observations from a re-analysis of the deposited data

How the results depend on the processing

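Of 69 alternative values, 50 kept their direction and, for counts, stayed within 1.5 times the reported value (for medians, within 1 standard error over members). With scaled reads in place of fold enrichment, the median log2 ratio was 0.061 for POM against DMSO and -0.78 for ATRA+POM against DMSO. It was 0.16 for the ATRA label against DMSO (turned in direction from -0.49). For ATRA+POM against the ATRA label it was -0.99 (turned in direction from 0.094). The medians of scaled reads over all genes were -0.12, -0.99, 0.17 and -1.17 in the same order. At gene-end peaks it was -0.77 for ATRA+POM against DMSO, -1.14 against POM and -0.0099 against the ATRA label (turned in direction). At 50% overlap it was -0.23 for the ATRA label against DMSO. Where the other list had to lack any locus peak, members with a gene-end peak in the second list only numbered 0 for POM against DMSO, 1 for ATRA+POM against DMSO, 0 for ATRA+POM against POM, 3 for the ATRA label against DMSO and 0 for ATRA+POM against the ATRA label. With 3 kb windows 1 member had a peak with ATRA+POM and none with DMSO, and 1 had one with ATRA+POM and none with POM. With equal numbers of peaks there were 68 locus peaks with ATRA+POM, 71 with POM, 75 under the ATRA label and 75 with DMSO. The POM list, highest with all peaks (109, against 96 with DMSO), was thus no longer highest. In this setting 3 members had a gene-end peak under the ATRA label and none with ATRA+POM. With peaks merged within 500 bp the locus peaks numbered 62 with ATRA+POM, 67 with POM, 49 under the ATRA label and 64 with DMSO. The cause of these shifts was not tested. No paired analysis was possible because each treatment had 1 library. With 1 library a treatment, treatment and library cannot be told apart, and the ATRA-labelled list limits every comparison it enters.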
